A study of Mus musculus with 4 samples.

Results

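Laminins are cross-shaped proteins built from 1 alpha, 1 beta and 1 gamma chain, and they form the sheet of the basement membrane on which epithelial cells sit. Nidogens link that sheet to the collagen IV network, and integrins and dystroglycan on the cell surface hold the cell to it. In the tooth germ the basement membrane separates the dental epithelium from the dental mesenchyme. The epithelial integrin made of the Itga6 and Itgb4 products binds laminin in hemidesmosomes, the rivets that tie the keratin skeleton to the basement membrane.

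The genes described here are Lama1, Lama3, Lama5, Lamb1, Lamb3, Lamc1, Itga6, Itgb4 and Nid1, which were taken from the count table by their symbols. All 9 of them, of 15887 genes in all, had a row, and each had only 1 row. The counts come from CAGE (cap analysis of gene expression), a method that reads the capped starts of transcripts, 1 tag a transcript whatever its length. There were 4 libraries of cultured tooth germs from ICR mouse embryos, with 1 library per condition. The 25°C_CPA germs were kept at 25 °C with cyclophosphamide (CPA), an alkylating anticancer drug that damages DNA, and the 25°C_DMSO germs at 25 °C with its solvent DMSO. The 37°C_CPA germs were kept at 37 °C with CPA, and the 37°C_DMSO germs, the conventional culture, at 37 °C with DMSO. Each library pooled several germs, so the spread between germs is not known. The series text gives 2.5 mM CPA for 3 days, and the characteristics in the sample records give tooth germs of stage E14.5. The protocols in the same sample records give 0.25 mM, dissection at E13.5 and 4 further days without CPA. These sources are not settled between them.

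The libraries held 15101186 to 16449264 counts, the deepest 1.09 times the shallowest. Counts were scaled with edgeR's TMM factors and are given as CPM, the count relative to the scaled library total. A gene was called when its fold reached 2 and the higher of both libraries held 50 counts. As every condition had 1 library, none of the differences could be checked in replicates and no p-values were computed, and the 95% intervals are exact binomial intervals that cover counting error only. Between the 25°C_CPA and 25°C_DMSO libraries, 90% of the measured genes had a log2 fold between -0.32 and 0.31, and this width is given only as a yardstick. The defining genes of dental epithelium and mesenchyme were present, with summed levels of 3326 to 4190 CPM for 16 epithelium markers and 2601 to 5434 for 14 of 15 mesenchyme markers in the table.

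The 9 genes held between 172 and 1661 counts in a library, so that none was near the floor of 3 counts. Lamc1, which encodes the gamma chain of most laminins, and Lamb1, the beta chain that commonly pairs with it, were the most abundant in 37°C_DMSO. Lama1, the alpha chain of the early embryonic laminin, was the least abundant there. For 7 of the 9 genes the 2 libraries at 25 °C did not differ beyond counting error. Itga6 had the widest range, 3.73 times from its lowest to its highest library, and Lamc1 the narrowest, at 1.22 times.

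**Figure D1:**
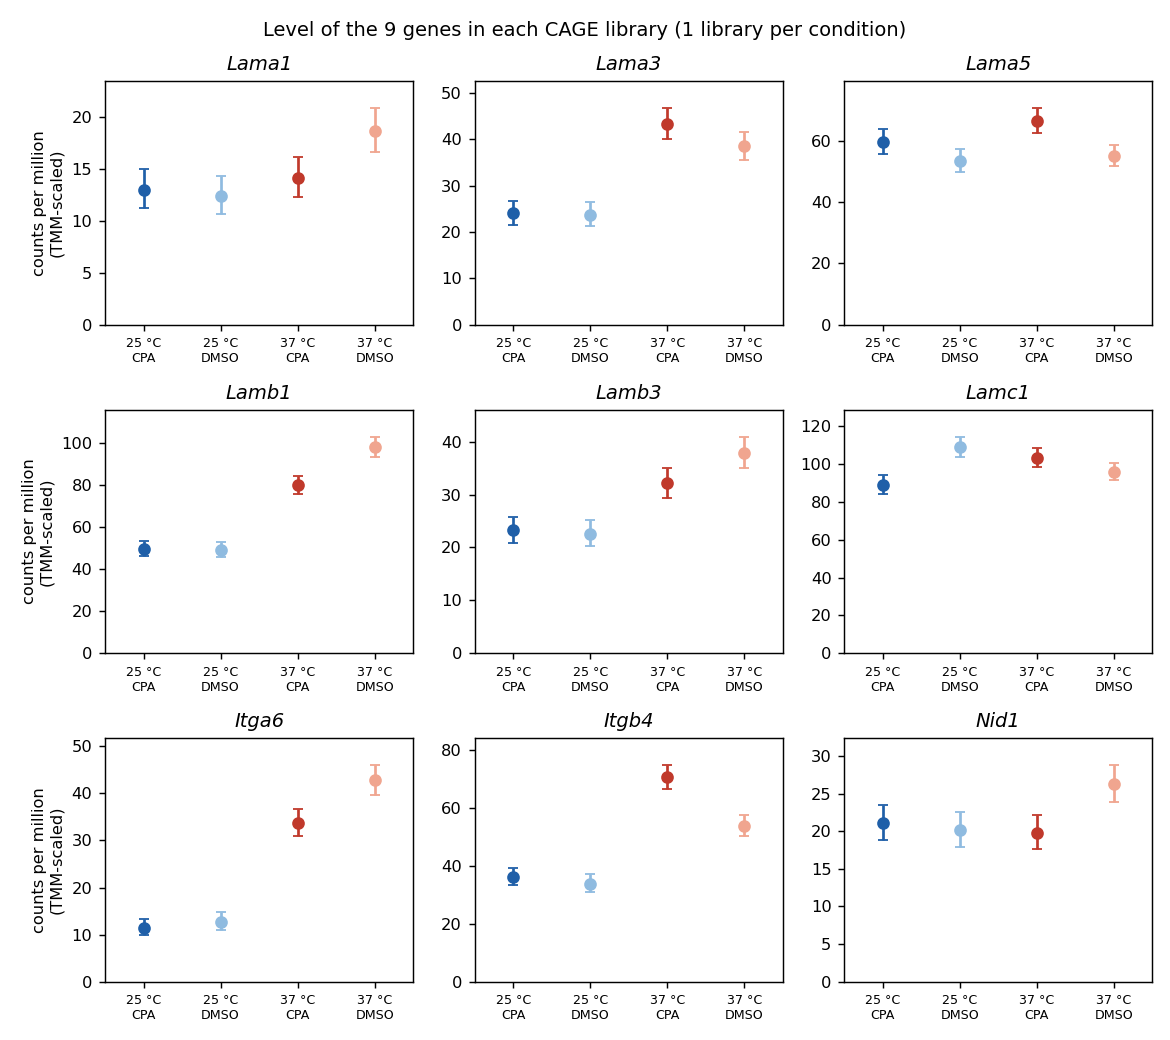
Level of each of the 9 genes in each library, in TMM-scaled CPM on linear axes that start at 0, with 25 °C libraries in blue and 37 °C libraries in red. Points are single libraries and bars are exact 95% counting intervals. Itga6, Itgb4, Lama3, Lamb1 and Lamb3 were lower in both 25 °C libraries than in both 37 °C libraries beyond counting error (with CPA and Gapdh scaling, the direction turned for Lamb3 and the log2 fold of Lamb1 was -0.02), while the intervals of Lama1, Lama5, Lamc1 and Nid1 overlapped between the temperatures.

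At 25 °C the integrin genes of the hemidesmosome were lower than at 37 °C, and Itga6 was the only one of the 9 genes to pass the 2-fold call. Itga6, which encodes the laminin-binding alpha subunit, had 172 counts in 25°C_CPA, 186 in 25°C_DMSO, 527 in 37°C_CPA and 724 in 37°C_DMSO. These counts correspond to 11.5, 12.7, 33.7 and 42.8 CPM in the same order. Both 25 °C libraries thus lay well below both 37 °C libraries. Itga6 was 2.94-fold lower in 25°C_CPA than in 37°C_CPA (95% interval 2.47 to 3.51) and 3.36-fold lower in 25°C_DMSO than in 37°C_DMSO (95% interval 2.85 to 3.97). The gene lies on chromosome 2 from 71583673 to 71696473 of mm9, on the plus strand. Among all measured genes, 10.9% were called lower in 25°C_CPA against 37°C_CPA and 11.5% in 25°C_DMSO against 37°C_DMSO, so 1 gene called of 9 is near the background. Of the 9 genes 0 were called higher, against 6.32% and 6.45% of all genes. With each library scaled to Gapdh, the normalizer of the study's qRT-PCR, the call of Itga6 was lost with CPA, at a log2 fold of -0.89. Comparisons that have a library in common are not independent of each other.

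Itgb4 encodes the beta subunit that pairs with the Itga6 product and carries the long tail that reaches into the hemidesmosome. Its levels were 36.2 CPM in 25°C_CPA, 33.9 in 25°C_DMSO, 70.5 in 37°C_CPA and 53.8 in 37°C_DMSO. Again the temperatures did not overlap, and the highest library was 37°C_CPA rather than 37°C_DMSO. Itgb4 was 1.95-fold lower in 25°C_CPA than in 37°C_CPA (95% interval 1.75 to 2.16) and 1.59-fold lower in 25°C_DMSO than in 37°C_DMSO (95% interval 1.42 to 1.78), both short of the call. With Gapdh scaling its log2 fold with CPA was -0.30. Without scaling and with scaling to the total count, Itgb4 was also called lower with CPA. Itgb4 lies on chromosome 11 from 115836023 to 115869726 of mm9.

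The partners did not keep a fixed ratio. Within a library the ratio of Itga6 to Itgb4 counts does not depend on scaling. It was 0.32 in 25°C_CPA (95% interval 0.27 to 0.38), 0.38 in 25°C_DMSO (95% interval 0.32 to 0.45), 0.48 in 37°C_CPA (95% interval 0.43 to 0.53) and 0.79 in 37°C_DMSO (95% interval 0.72 to 0.88). The 37°C_DMSO library stood above the other 3, and its interval overlapped none of theirs. Itga3, the alpha subunit of another laminin-binding integrin, had 223, 212, 308 and 321 counts in the same order. Itga6 counts were thus below those of Itga3 at 25 °C, with ratios of 0.77 and 0.88, and above them at 37 °C, with ratios of 1.71 and 2.26. The interval of the 25°C_DMSO ratio, 0.72 to 1.07, reached 1.

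**Figure D2:**
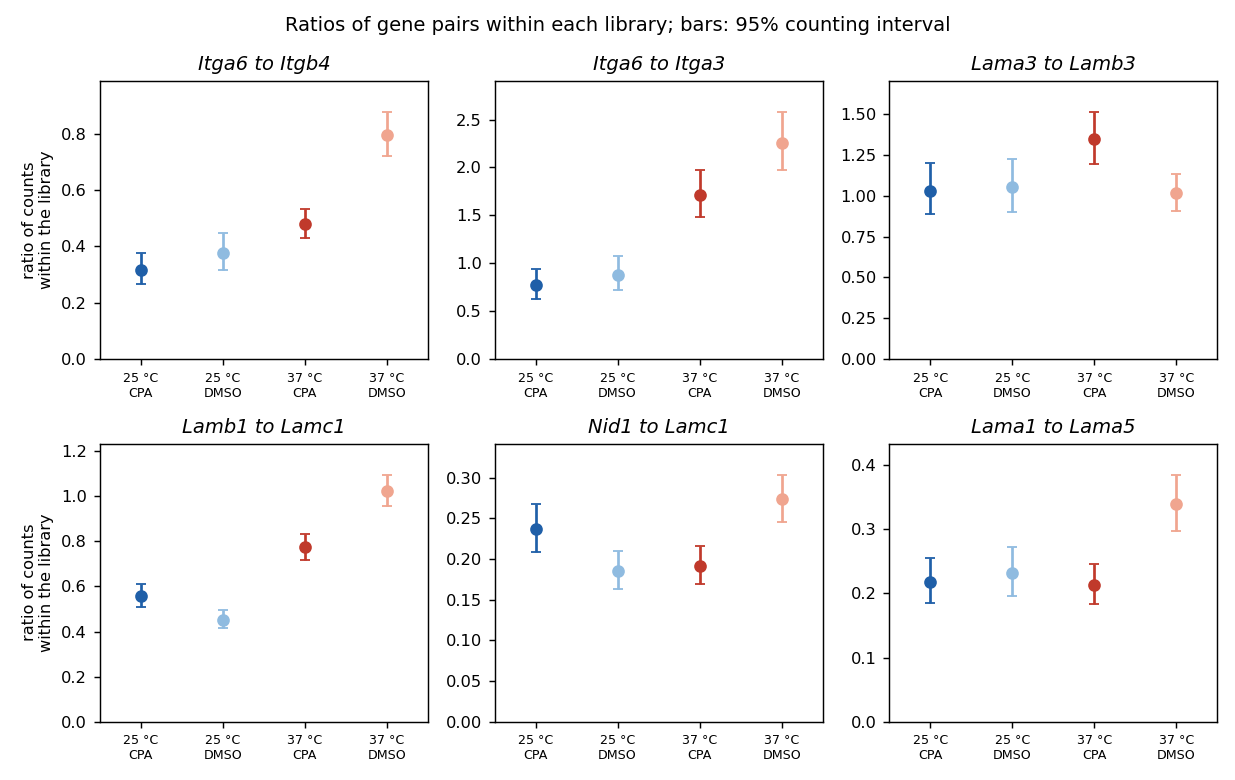
Ratio of the counts of 2 genes within each library, for 6 pairs, on linear axes that start at 0, with the 25 °C libraries in blue and the 37 °C libraries in red. Bars are exact 95% counting intervals. Lama3 to Lamb3 stayed between 1.02 and 1.35 in the 4 libraries, while Itga6 to Itga3 and Lamb1 to Lamc1 were lower in both 25 °C libraries than in both 37 °C libraries with no overlap of intervals. For Itga6 to Itgb4 the intervals of 25°C_DMSO and 37°C_CPA overlapped.

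Lama3 and Lamb3 encode the alpha and beta chains of the epithelial laminin that the hemidesmosome integrin binds. Lama3 had 24.0 CPM in 25°C_CPA, 23.8 in 25°C_DMSO, 43.3 in 37°C_CPA and 38.5 in 37°C_DMSO. Lamb3 had 23.3, 22.6, 32.2 and 37.9 CPM in the same order. Both genes were lower in the 25 °C libraries, which overlapped each other, than in either 37 °C library. Lama3 was 1.80-fold lower in 25°C_CPA than in 37°C_CPA (95% interval 1.58 to 2.05) and 1.62-fold lower in 25°C_DMSO than in 37°C_DMSO (95% interval 1.42 to 1.85). With Gapdh scaling the log2 fold of Lama3 with CPA was -0.19. Lamb3 was 1.38-fold lower with CPA (95% interval 1.20 to 1.59), where the direction flipped to a log2 fold of 0.19 with Gapdh scaling, and 1.68-fold lower with DMSO (95% interval 1.47 to 1.92).

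Within a library the ratio of Lama3 to Lamb3 counts was 1.03, 1.05, 1.35 and 1.02 in 25°C_CPA, 25°C_DMSO, 37°C_CPA and 37°C_DMSO. Only the 37°C_CPA interval, 1.20 to 1.51, did not hold 1.

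Lamb1, Lamc1 and Lama5 encode chains of the laminins found under most epithelia. Lamb1 had 49.7 CPM in 25°C_CPA, 49.3 in 25°C_DMSO, 79.9 in 37°C_CPA and 98.1 in 37°C_DMSO. The libraries at 25 °C could not be told apart, and each was below both libraries at 37 °C. Lamb1 was 1.61-fold lower in 25°C_CPA than in 37°C_CPA (95% interval 1.47 to 1.76) and 1.99-fold lower in 25°C_DMSO than in 37°C_DMSO (95% interval 1.82 to 2.18), just inside the 2-fold line. With Gapdh scaling the log2 fold of Lamb1 with CPA was -0.02. Lamb1 was called with DMSO without scaling, with scaling to the total count and after thinning the libraries to equal depth, so that 2 of the 9 genes were called there in place of 1. Lamc1 had 89.1, 108.9, 103.3 and 95.9 CPM in 25°C_CPA, 25°C_DMSO, 37°C_CPA and 37°C_DMSO, so that the temperatures overlapped. Its log2 fold at 25 °C was -0.21 with CPA, which became 0.45 with Gapdh scaling, and 0.18 with DMSO, which became -0.03 without scaling. Lama5, the most abundant alpha chain, had 59.7, 53.5, 66.5 and 55.2 CPM in the same order. Its log2 folds at 25 °C were -0.16 with CPA and -0.04 with DMSO, both of which turned positive with Gapdh scaling (0.51 and 0.38). The ratio of Lamb1 to Lamc1, free of scaling, was 0.56 in 25°C_CPA and 0.45 in 25°C_DMSO, against 0.77 in 37°C_CPA and 1.02 in 37°C_DMSO, with no overlap of the intervals between the temperatures.

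Because CAGE counts start sites, the promoters of Lamb1, Lama5 and Lamb3, whose log2 folds at 25 °C with DMSO were -0.99, -0.04 and -0.75, are shown for comparison. RefSeq promoter windows, from 250 bases before to 50 after a start on GRCm38.p6, were at hand for 4 of the 9 genes, namely these and Nid1. Only the 250 bases before the start are printed, 5′ to 3′ on the strand of the gene, and capitals mark GGGCGG or CCAAT on either strand. The windows were also searched for TATAAA and TGANTCA. The Lamb1 stretch is chr12:31265043-31265292 on the plus strand, that of Lama5 is chr2:180225860-180226109 on the minus strand, and that of the upstream start of Lamb3 is chr1:193301744-193301993 on the plus strand.
Lamb1: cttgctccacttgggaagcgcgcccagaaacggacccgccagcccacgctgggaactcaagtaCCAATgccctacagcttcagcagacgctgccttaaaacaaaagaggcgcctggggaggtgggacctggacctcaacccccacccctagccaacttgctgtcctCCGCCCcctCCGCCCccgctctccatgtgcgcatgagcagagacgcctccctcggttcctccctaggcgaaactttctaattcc
Lama5: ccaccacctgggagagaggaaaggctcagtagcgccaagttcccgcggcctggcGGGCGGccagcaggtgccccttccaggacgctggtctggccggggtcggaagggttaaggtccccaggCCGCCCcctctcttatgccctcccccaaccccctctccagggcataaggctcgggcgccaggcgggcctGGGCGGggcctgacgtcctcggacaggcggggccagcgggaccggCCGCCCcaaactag
Lamb3: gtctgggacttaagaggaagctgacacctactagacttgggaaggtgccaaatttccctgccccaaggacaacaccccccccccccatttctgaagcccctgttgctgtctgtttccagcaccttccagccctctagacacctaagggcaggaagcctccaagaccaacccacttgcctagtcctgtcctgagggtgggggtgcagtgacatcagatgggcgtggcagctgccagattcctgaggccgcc
Lama5 held 4 matches to GGGCGG, the core of the GC box, and Lamb1 held 2 along with 1 match to CCAAT. Nid1 held 1 of each, and neither of the 2 Lamb3 windows held any of the 4 motifs. Across all 32851 promoter windows of the table, 35.7% held GGGCGG, 37.4% held CCAAT, 13.6% held TATAAA and 7.81% held TGANTCA. Neither of the last pair was in any of the 5 windows. A match is only a run of letters, and the count table gives 1 value per gene, so separate start sites of a gene could not be told apart.

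Lama1 had 13.0, 12.4, 14.1 and 18.7 CPM in 25°C_CPA, 25°C_DMSO, 37°C_CPA and 37°C_DMSO. Only the 37°C_DMSO library stood apart from its neighbour, by 1.32-fold (95% interval 1.11 to 1.58), and the other 3 did not differ beyond counting error from one to the next. Nid1 encodes nidogen, which binds the laminin gamma chain, and had 21.1, 20.1, 19.8 and 26.2 CPM in the same order. Here too 37°C_DMSO alone was higher, by 1.24-fold over the next library (95% interval 1.07 to 1.44). The log2 folds at 25 °C with DMSO were -0.59 for Lama1 and -0.38 for Nid1, the second of which became 0.04 with Gapdh scaling. With CPA they were -0.12 for Lama1, which became 0.54 with Gapdh scaling, and 0.09 for Nid1. For both genes the 95% interval of the fold with CPA held 1.

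**Figure D3:**
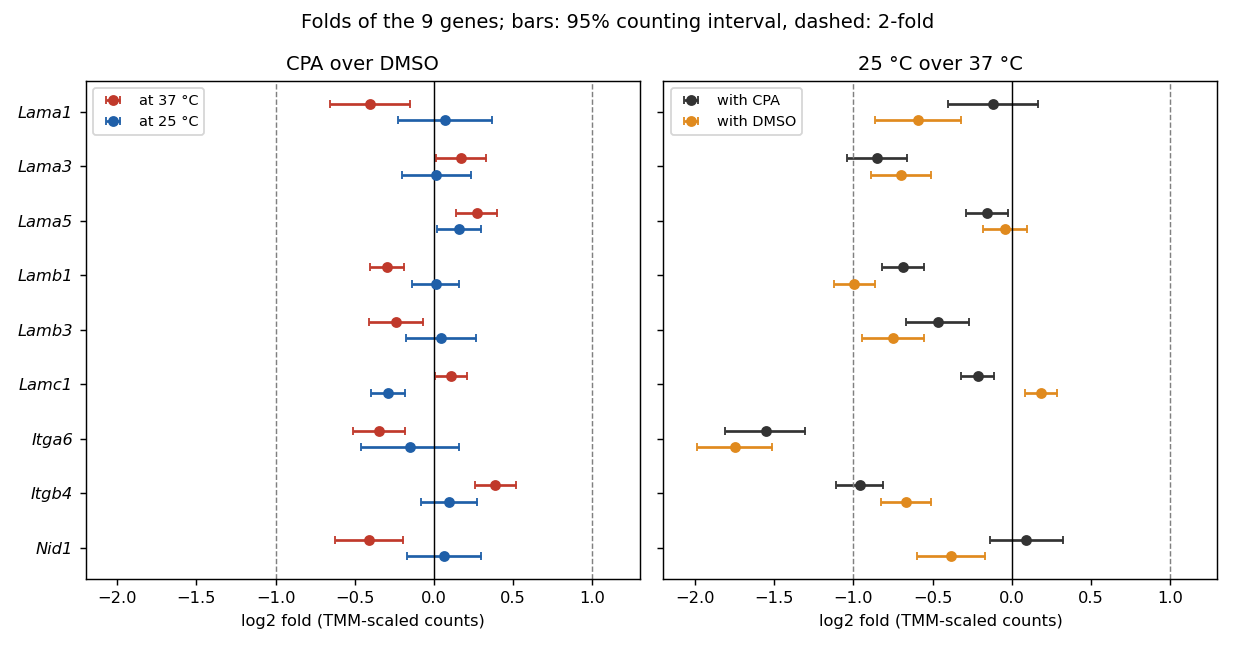
Log2 folds of the 9 genes for CPA over DMSO (left, at 37 °C in red and at 25 °C in blue) and for 25 °C over 37 °C (right, with CPA in black and with DMSO in orange). Bars are 95% counting intervals and dashed lines mark 2-fold. Itga6 alone lies beyond the 2-fold line, in both 25 °C comparisons, and with CPA at 37 °C all 9 genes lie between -0.41 and 0.39.

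Over all 9 genes, the median log2 fold at 25 °C was -0.47 with CPA and -0.67 with DMSO, where the medians of all measured genes were 0.00 and -0.01. With CPA 8 of 9 genes had a fold below 1, and for 7 of them the counting interval lay below 1, against 36.6% of all genes. With DMSO 8 of 9 were below 1, again 7 of them with an interval below 1, against 37.7% of all genes. At a fold of 1.5, 4 of 9 were called lower with CPA and 6 of 9 with DMSO, against 20.3% and 21.4% of all genes, and 0 were called higher, against 16.3% and 17.3%. The interval lay above 1 for 0 of 9 genes with CPA and 1 of 9, Lamc1, with DMSO, against 36.3% and 36.3% of all genes. With Gapdh scaling, which moved the median of all genes by 0.66 with CPA and 0.43 with DMSO, the medians of the 9 genes were 0.19 and -0.24, so that the direction with CPA flipped. Such a scaling moves all genes alike, so it leaves the distance between the 9 genes and the other genes as it was.

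The bulk counts cannot tell fewer cells of a type from less RNA per cell, and markers of several cell types moved with these results. For reference, 10.9% of all measured genes were called lower and 6.32% higher in 25°C_CPA against 37°C_CPA. In 25°C_DMSO against 37°C_DMSO these shares were 11.5% and 6.45%. Of 16 epithelium markers, 3 were called lower and 1 higher in 25°C_CPA against 37°C_CPA (median log2 fold -0.39), and 4 were lower and 0 higher in 25°C_DMSO against 37°C_DMSO (median -0.48). Their summed level was 3326 and 3515 CPM in 25°C_CPA and 25°C_DMSO, against 4190 and 4115 in 37°C_CPA and 37°C_DMSO. Krt5 and Krt14, keratins of the basal cells that rest on the basement membrane, were not called. Their log2 folds were -0.37 for Krt5 and -0.33 for Krt14 with CPA, and 0.08 and -0.04 with DMSO. Krt15, another keratin, was the 1 called higher with CPA, at 1.01, and stood at 0.56 with DMSO. Cldn4, Krt8 and Sfn were called lower in both comparisons and Krt18 with DMSO only. Sfn was the lowest, at -2.33 with CPA and -1.96 with DMSO. Of all 16 epithelium markers 13 had a fold below 1 with CPA and 12 with DMSO. Markers of cornified epidermis, which stands for cells that have left the basement membrane, were lower in 7 of 8 with CPA and 6 of 8 with DMSO. Their summed level was 92.6 and 122 CPM at 25 °C with CPA and DMSO, against 1214 and 1166 at 37 °C, and Lce3a, Lor and Sprr1b were at 0 in both 25 °C libraries. Of 10 measured endothelium markers, which mark another cell with a laminin sheet, 3 were lower with CPA and 4 with DMSO. Their summed level was 130 and 143 CPM at 25 °C with CPA and DMSO, against 181 and 244 at 37 °C, and none was at 0. Macrophage markers were lower in 4 of 11 and higher in 1 with CPA, and lower in 7 of 11 with DMSO, with summed levels of 209 and 204 CPM at 25 °C against 661 and 902 at 37 °C. Mesenchyme markers, of which 1 was lower and 1 higher with CPA and 3 were lower and 1 higher with DMSO, summed to 2634 and 2601 CPM at 25 °C against 3207 and 5434 at 37 °C. Their median log2 fold was 0.30 with CPA, with 11 of 14 above 1, and -0.05 with DMSO, with 7 of 14 above 1. Much of the sum at 37 °C was Col1a1, a collagen gene, with 580 and 566 CPM at 25 °C with CPA and DMSO, against 1537 and 2900 at 37 °C. Another collagen gene, Col3a1, had 621 and 639 CPM at 25 °C with CPA and DMSO, against 538 and 1061 at 37 °C. Of 4 measured Schwann cell and nerve markers 2 were lower with CPA and 2 with DMSO, and of 8 measured muscle markers 1 was lower and 4 higher with CPA and 4 were lower and 1 higher with DMSO. The part of these cell types in the folds of the 9 genes was not tested.

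With CPA at 37 °C the changes were small and the genes went in different directions. None of the 9 genes was called higher or lower in 37°C_CPA against 37°C_DMSO, where 2.4% of 13307 measured genes were called higher and 1.59% lower. Itgb4 had 70.5 CPM in 37°C_CPA and 53.8 in 37°C_DMSO, a fold of 1.31 (95% interval 1.20 to 1.43). Lama5 had 66.5 CPM in 37°C_CPA and 55.2 in 37°C_DMSO, a fold of 1.21 (95% interval 1.10 to 1.32), and Lama3 had a fold of 1.12 (95% interval 1.01 to 1.25). Lamc1 had a fold of 1.08 (95% interval 1.00 to 1.15), with a log2 fold of 0.11 that became -0.01 without scaling. On the other side, Nid1 was 1.33-fold lower (95% interval 1.14 to 1.54), Lama1 1.32-fold lower (95% interval 1.11 to 1.58) and Itga6 1.27-fold lower (95% interval 1.13 to 1.42). Lamb1 was 1.23-fold lower (95% interval 1.14 to 1.32) and Lamb3 1.18-fold lower (95% interval 1.05 to 1.33). The partners Itga6 and Itgb4 thus lay on opposite sides, as did Lama3 and Lamb3.

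All 9 intervals lay off 1 in this comparison, 4 above and 5 below, against 24.5% above and 27.7% below for all measured genes. The median log2 fold of the 9 genes was -0.24, with -0.02 for all genes. At a fold of 1.5, 0 of 9 were called, against 6.59% higher and 6.61% lower of all genes. Epithelium markers had a median of -0.10, with 0 of 16 called and summed levels of 4190 CPM in 37°C_CPA and 4115 in 37°C_DMSO. Mesenchyme markers had a median of -0.30, with 1 of 14, Pdgfra, called lower, and summed levels of 3207 in 37°C_CPA and 5434 in 37°C_DMSO. Muscle markers were called lower in 4 of 8 and macrophage markers in 4 of 11, where 1.59% of all measured genes were called lower. Their summed levels were 54.2 and 661 in 37°C_CPA against 120 and 902 in 37°C_DMSO. Their part in the result was not tested.

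With CPA at 25 °C there was less to see. None of the 9 genes was called in 25°C_CPA against 25°C_DMSO, where 0.142% of 12704 measured genes were called higher and 0.118% lower. For 7 of the 9 genes the interval of the fold held 1. The exceptions were Lamc1, which was 1.22-fold lower with CPA (95% interval 1.14 to 1.32, 1335 counts in 25°C_CPA and 1591 in 25°C_DMSO), and Lama5, with a fold of 1.12 (95% interval 1.01 to 1.23). Of all measured genes, 10.4% had an interval below 1 and 9.44% above it. At a fold of 1.5, 0 of 9 genes were called, against 0.827% higher and 0.937% lower of all genes. The median log2 fold of the 9 genes was 0.04, and 0.00 for all genes, and every one of the 9 lay within the middle 90% of all genes. The log2 fold of Itga6 was -0.15, and 0.13 with Gapdh scaling, which moved the median of all genes by 0.28.

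Set side by side, the CPA effects at 37 °C and 25 °C share no library. The difference of the log2 folds, 37 °C minus 25 °C, was -0.47 for Nid1 (95% interval -0.79 to -0.16) and -0.47 for Lama1 (95% interval -0.85 to -0.09). It was 0.40 for Lamc1 (95% interval 0.25 to 0.54) and 0.29 for Itgb4 (95% interval 0.08 to 0.51). For Lamb1 the difference was -0.31 (95% interval -0.49 to -0.13) and for Lamb3 -0.28 (95% interval -0.56 to -0.01). For Itga6, Lama3 and Lama5 the difference was -0.19, 0.15 and 0.11, with intervals that held 0. These intervals cover counting error in 4 counts, and whether the effects differ between the temperatures was not tested.

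Lamc3, a gamma chain of restricted expression, had 29.8 CPM in 25°C_CPA, 28.7 in 25°C_DMSO, 38.6 in 37°C_CPA and 75.4 in 37°C_DMSO. The 37°C_DMSO library stood highest, and 37°C_CPA also lay above both 25 °C libraries, with no overlap of the counting intervals. The log2 fold of Lamc3 in 25°C_CPA against 37°C_CPA was -0.37, short of the call. Lamc3 was 2.63-fold lower in 25°C_DMSO than in 37°C_DMSO (95% interval 2.35 to 2.94) and 1.95-fold lower in 37°C_CPA than in 37°C_DMSO (95% interval 1.77 to 2.16), and these comparisons share the 37°C_DMSO library. Lamb2, a beta chain of vessels and muscle, had 56.4, 56.5, 66.2 and 65.9 CPM in the order above. Lama4, an alpha chain of vessels and mesenchyme, had 35.7, 34.4, 35.1 and 45.4, and Lama2, the alpha chain of muscle, had 12.3, 14.8, 10.2 and 14.1. Neither Lamb2, Lama4 nor Lama2 was called in any comparison. Ntn4, a netrin that binds laminin, had at most 26 counts in a library and was not measured.

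As shares of the counts of all alpha or all beta chain genes, which need no scaling between libraries, Lama3, Lamb1 and Lamb2 separated by temperature and the other chains did not. Lamb1 made up 38.4% of the beta chain counts in 25°C_CPA and 38.4% in 25°C_DMSO, against 44.8% in 37°C_CPA and 48.6% in 37°C_DMSO. The exact intervals at 25 °C, 36.2% to 40.6% in both libraries, lay below those at 37 °C, 43.0% to 46.7% with CPA and 46.9% to 50.3% with DMSO. Lamb3 kept 17.6% to 18.8% of the beta chain counts in all 4 libraries. Lama3 made up 16.6% of the alpha chain counts in 25°C_CPA and 17.1% in 25°C_DMSO, against 25.6% in 37°C_CPA and 22.4% in 37°C_DMSO, with no overlap of intervals between the temperatures. Lama5 had the largest share of the alpha chains in every library, 41.2%, 38.5%, 39.3% and 32.1% in the order 25°C_CPA, 25°C_DMSO, 37°C_CPA and 37°C_DMSO. The 37°C_DMSO library was the lowest for it.

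**Figure D4:**
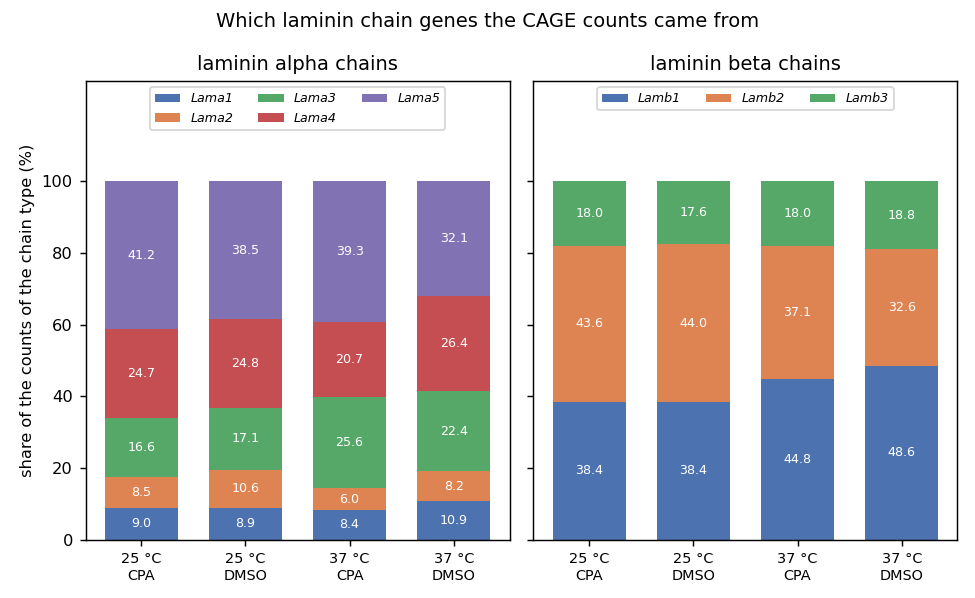
Share of each laminin gene in the counts of all alpha chain genes (left) or all beta chain genes (right) of a library, in percent, with 1 bar per library and the value printed in each segment. Lamb1 holds 38.4% of the beta chain counts in both 25 °C libraries, against 44.8% and 48.6% at 37 °C, and Lama5 holds the largest share of the alpha chain counts in each of the 4 libraries.

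The rest of the basement membrane and its attachments was read from lists. Of 24 other basement membrane genes in the table, 5 were called lower and 1 higher in 25°C_CPA against 37°C_CPA (median log2 fold -0.16), and 5 were lower and 0 higher in 25°C_DMSO against 37°C_DMSO (median -0.52). Of all measured genes 10.9% were called lower and 6.32% higher with CPA, and 11.5% and 6.45% with DMSO. Fbln1, which encodes a fibulin that binds nidogen and laminin, had log2 folds of -2.26 with CPA and -2.59 with DMSO. It had 832 counts in 25°C_CPA against 4152 in 37°C_CPA and 884 in 25°C_DMSO against 6162 in 37°C_DMSO. Sparc, a collagen-binding matrix protein, had log2 folds of -1.41 with CPA and -2.19 with DMSO. Agrn, which encodes agrin and binds laminin and dystroglycan, was also called lower in both, at -1.21 and -1.13. Hspg2, the gene of perlecan, which the study stained as its basement membrane marker, had 563 counts in 25°C_CPA against 1187 in 37°C_CPA and 626 in 25°C_DMSO against 1299 in 37°C_DMSO. Its log2 fold was -1.02 with CPA, a call, and -0.84 with DMSO, short of it. Frem2 and Npnt, which encode epithelial basement membrane proteins, were the highest with DMSO, at 0.51 and 0.44. Smoc1 was the 1 gene called higher in 25°C_CPA against 37°C_CPA, at 1.08. In 37°C_CPA against 37°C_DMSO it was the 1 gene of this list called lower, at -1.45. There 1.59% of all measured genes were called lower and 2.4% higher. These comparisons share the 37°C_CPA library. In 25°C_CPA against 25°C_DMSO none of the 24 was called, where 0.118% of all measured genes were called lower and 0.142% higher.

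Of 7 hemidesmosome and anchoring genes, 0 were called in any comparison. Of all measured genes, 10.9% were called lower and 6.32% higher in 25°C_CPA against 37°C_CPA, and 11.5% and 6.45% in 25°C_DMSO against 37°C_DMSO. For CPA over DMSO, 1.59% were called lower and 2.4% higher at 37 °C, and 0.118% and 0.142% at 25 °C. Plec, which encodes the linker plectin, was the lowest at 25 °C, with log2 folds of -0.72 with CPA and -0.76 with DMSO, followed by Col17a1, the transmembrane collagen of the hemidesmosome, at -0.45 and -0.73. Dst, the gene of another plakin linker, was at -0.11 and 0.05. The median of the list was -0.34 with CPA and -0.08 with DMSO, so Itga6 lay below every one of these genes in both comparisons.

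Of 9 measured other laminin receptors, 1 was lower with CPA and 2 with DMSO at 25 °C, and 0 were higher, where 10.9% and 11.5% of all measured genes were lower. Itga1, which pairs with Itgb1 to bind collagen and laminin, had 32 counts in 25°C_CPA against 155 in 37°C_CPA and 26 in 25°C_DMSO against 233 in 37°C_DMSO, with log2 folds of -2.22 and -2.95. Itga2 was lower with DMSO only, at -1.23, where it rested on 61 counts in 25°C_DMSO. Dag1, the gene of dystroglycan, and Rpsa, a ribosomal protein gene also known as a laminin receptor, were the highest of the list, at 0.30 and 0.50 with CPA and 0.26 and 0.44 with DMSO. Of 9 measured other integrins, 2 were lower with CPA and 4 with DMSO, against the same 10.9% and 11.5%, among them Itgb3 at -1.54 and -1.82 and Itga11, a collagen receptor subunit, at -1.10 and -2.21. Of 16 genes of the integrin adhesion complex inside the cell, 0 were called with CPA and 1, Tns1, with DMSO, at -1.37. For CPA over DMSO, 0 genes of the hemidesmosome, receptor, integrin and adhesion complex lists were called at either temperature. Of all measured genes, 1.59% were called lower and 2.4% higher in that comparison at 37 °C, and 0.118% and 0.142% at 25 °C.

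**Figure D5:**
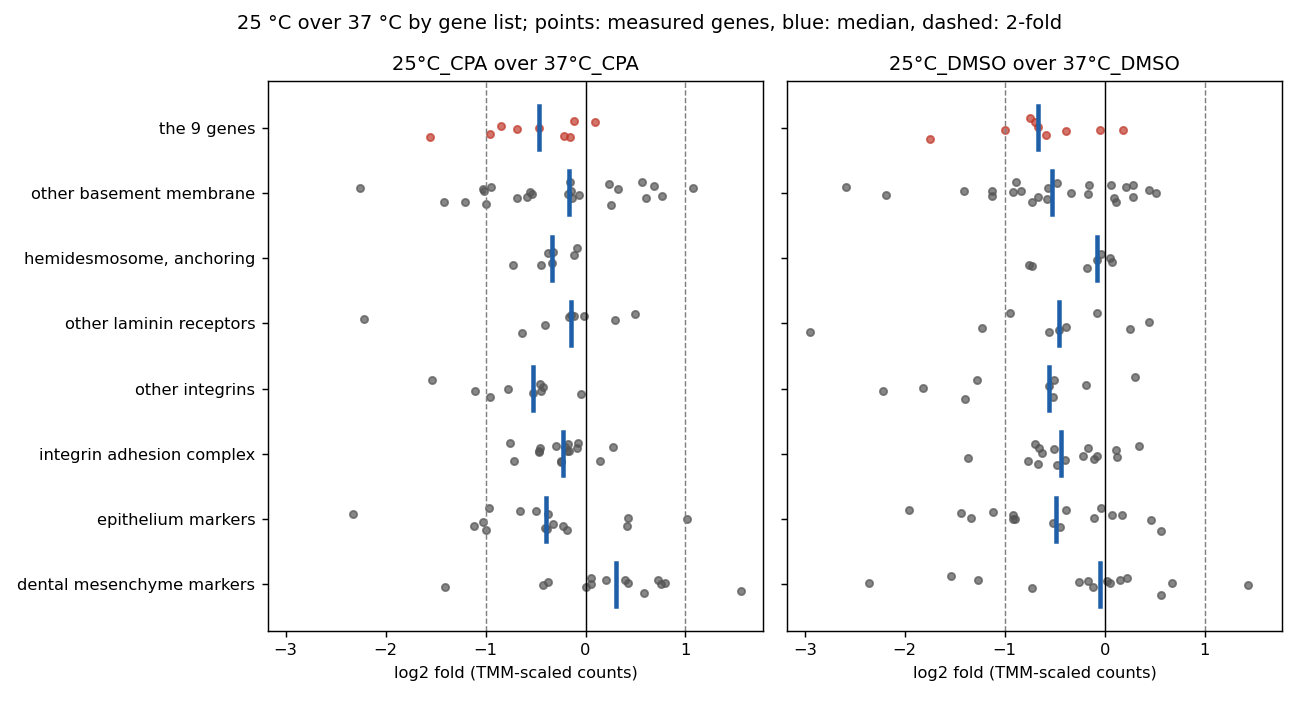
Log2 folds at 25 °C over 37 °C of the measured genes of each list, with CPA (left) and with DMSO (right). Points are genes, red for the 9 genes and grey for the others, blue bars are medians and dashed lines mark 2-fold. The median of the 9 genes is -0.47 with CPA and -0.67 with DMSO, and the epithelium markers have medians of -0.39 and -0.48.

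The genes whose levels over the 4 libraries were nearest to those of Itga6 were sought among 9406 genes with at least 200 counts in a library. Predicted genes, microRNA genes and Riken clones were left out. The measure was the root mean square difference of log2(CPM + 1), each gene centred on its own mean. The nearest were Anxa1, a membrane-binding annexin (0.03), Mypop (0.03), Ube2l6, an enzyme of the interferon-induced ubiquitin-like system (0.03), Pcolce, a secreted enhancer of procollagen processing (0.04), and Ccdc68 (0.04), where the median over all these genes was 0.81. Anxa1 had 1266 counts in 25°C_CPA, 1422 in 25°C_DMSO, 3774 in 37°C_CPA and 5265 in 37°C_DMSO. Of the other 8 genes described here the nearest was Lamb1 at 0.38, and Itgb4 was at 0.47. With 4 libraries such nearness is a description only.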

How the data were processed

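CAGE was run on total RNA of cultured tooth germs, 1 library per condition, by a service provider. The tags were aligned by the authors to mm9, and start sites were derived from them using SAMtools within MOIRAI. BWA 0.5.9 and the builds mm9 and GRCh38 stand in the submitters' processing notes, with no role stated. Which annotation was used, and how tags were summed over a gene, is not given in the sources used here. In a table that the authors deposited are raw tag counts of 15887 genes. PCR copies were not told apart, so intervals cover counting error only.

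TMM factors over all 4 libraries were computed with edgeR 4.0.16 in R 4.3.3. Folds are ratios of counts over total times factor, with exact (Clopper-Pearson) 95% intervals of the binomial split. A gene was measured when the higher library held 50 counts or more, a count of 0 was set to 3 counts, and no test was run. The 9 genes and the 14 other lists were chosen with earlier results of these data known. Named were all 9 genes, other laminin chains, the 2 measured genes at each end of a list by fold, and the 5 genes nearest in pattern to the member with the widest range. Hspg2 was named in addition, and called genes outside the rule where a count was small, after their values were seen. Positions on mm9 were looked up by gene identifier in GENCODE vM1. No gene of the table overlapped the 9 genes there, and none of them shared its counts with another gene. Calculations used Python 3.11.15, numpy 2.4.6, pandas 2.3.3 and SciPy 1.17.1, and were tested on simulated data. Alternatives tried were unscaled counts, the total count or Gapdh as the scale, DESeq2 1.42.0 size factors, a minimum of 200 counts or none, 10 added counts, a call at 1.5-fold or with its interval beyond 2-fold, summed rows, and thinned libraries. Some genes of the lists, and the results that need them, are not reported here.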

Additional observations from a re-analysis of the deposited data

Results flagged for a closer look

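For 5 of the 9 genes the log2 fold with CPA had opposite signs at 37 °C and 25 °C, with a counting interval of the difference that did not hold 0. Of 12328 genes measured in both comparisons, 30.1% met the same rule. The difference, 37 °C minus 25 °C, was -0.47 for Lama1, -0.31 for Lamb1, -0.28 for Lamb3, 0.40 for Lamc1 and -0.47 for Nid1. For Lamc1 and Nid1 the log2 fold at 25 °C over 37 °C also had opposite signs with CPA and with DMSO, and the difference, CPA minus DMSO, was -0.40 for Lamc1 and 0.47 for Nid1. Of 13151 genes measured in both of these, 12.5% met the same rule. The signs depend on the scaling. For Lamc1 the log2 fold at 25 °C was -0.27 with CPA and -0.03 with DMSO without scaling, and 0.45 and 0.61 with Gapdh scaling, so that the signs were then alike. For Nid1 it was 0.75 and 0.04 with Gapdh scaling, also alike, and its fold with CPA had an interval that held 1. The log2 fold of Lamc1 with CPA at 37 °C was -0.01 without scaling, so that its signs at 37 °C and 25 °C were then alike too. Each of these is 1 value from the same 4 counts seen along the other axis. The differences were not tested, since each condition has 1 library. For Lama1, Lamb1, Lamb3 and Nid1 the log2 fold with CPA at 25 °C was at most 0.07, with an interval that held 0, so its sign is not firm.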

How the results depend on the processing

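No paired analysis was possible because each condition has 1 library and no difference was tested. The calls were sensitive to where the line is drawn. In 25°C_DMSO against 37°C_DMSO, 2 of the 9 genes (Lamb1 and Itga6) were lower without scaling, with scaling to the total count and after thinning, and 6 at a fold of 1.5, in place of 1. In 25°C_CPA against 37°C_CPA, 2 (Itga6 and Itgb4) were lower without scaling and with scaling to the total count, 4 at a fold of 1.5 and 0 with Gapdh scaling, in place of 1. The median log2 fold of the 9 genes in 25°C_DMSO against 37°C_DMSO was -0.88 without scaling, which moved the median of all genes by -0.21, and -0.24 with Gapdh scaling. With Gapdh scaling the median was 0.19 in 25°C_CPA against 37°C_CPA and 0.32 in 25°C_CPA against 25°C_DMSO, where it moved the median of all genes by 0.66 and 0.28. In 37°C_CPA against 37°C_DMSO 0 of the 9 genes were called under every alternative, and their median was -0.24, -0.35 without scaling, which moved the median of all genes by -0.11, and -0.20 with Gapdh scaling. Of the single folds, 25 of 36 left their counting interval with Gapdh scaling and 8 of 36 without scaling, and none under the other scalings and added counts. Called genes split 870 higher and 1556 lower in 25°C_DMSO against 37°C_DMSO, 843 and 1456 in 25°C_CPA against 37°C_CPA, and 320 and 212 in 37°C_CPA against 37°C_DMSO. With Gapdh scaling the first 2 of these were 2399 and 922, and 3733 and 635, and without scaling the first and the last were 555 and 2124, and 252 and 331. Summing rows of a symbol changed no chain share, and 4 of the 5 genes nearest to Itga6 were the same with scaling to the total count.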
